A study of Mus musculus with 6 samples.

Results

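The 9 genes described here encode enzymes that make, rescue and break down pyrimidine nucleosides: Upp1, Uck1, Uck2, Cda, Tk1, Dck, Cad, Umps and Dhodh. They were taken by symbol from a table of 23337 genes, with Upp1 in the set because of its low level with CCL5 in these libraries, so the values below are descriptions of that comparison. All 9 genes were found, and 8 of them passed the filter on low counts. Cda did not pass, because it was near 0 in 4 of the 6 libraries.

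Cells obtain uridine and cytidine nucleotides either from scratch or from free nucleosides. New synthesis runs through CAD, which carries out the opening steps, DHODH, a mitochondrial enzyme that hands electrons to ubiquinone, and UMPS, which completes UMP. Salvage runs through kinases that trap nucleosides in the cell, while uridine phosphorylase (UPP1) and cytidine deaminase (CDA) turn nucleosides over. Leukemia cells depend on these routes for RNA and DNA synthesis. DCK activates the drug cytarabine and CDA inactivates it, and DHODH inhibitors have been studied as agents that push myeloid leukemia cells to differentiate.

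Polyadenylated RNA of a murine leukemia, called primary and neonatal in the labels and MLL-rearranged in the series title, was sequenced after CCL5 or under control conditions (titled negative), with 3 libraries per group. CCL5 is a chemokine, and its dose and duration, the MLL fusion, the strain and the age at sampling are not given in the sources used here. Titles carry neo30 for CCL5 replicate 1 and neo10 for CCL5 replicates 2 and 3, and what these mark is not explained. CCL5 replicate 1 came from a tertiary transplant, CCL5 replicates 2 and 3 and control replicate 3 from a primary transplant, and no transplant is given for control replicates 1 and 2. Whether each library is a different animal or culture is not stated in the labels, so p-values measure only the spread between these libraries, which may be technical.

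The libraries did not sort by treatment. CCL5 replicates 1 and 3 resembled each other (Pearson r 0.993 over the log2 CPM of 12174 genes, where CPM is the count scaled to the TMM library size), as did control replicates 1 and 2 (0.995), and CCL5 replicate 2 resembled control replicate 3 (0.995). The other 12 pairs of libraries lay between 0.826 and 0.887. Counts within each close pair still differed by more than sampling noise (chi-square per degree of freedom 3.63 to 7.34), so no library was taken as a copy of another. Y-linked genes had no reads in CCL5 replicates 1 and 3 and had reads in the other 4 libraries, called Y-positive below. Totals ran from 13421100 to 18445095 counts per library, and 3 counts, the most that a count of 0 allows, correspond to 0.160 to 0.273 CPM. Markers of myeloid leukemia cells such as Itgam and Cebpa were present in every library. Kit, a progenitor receptor named after its values were seen, had 488 and 489 counts in CCL5 replicate 2 and control replicate 3 and 1 to 13 in the others. The 8 B-lymphoid markers summed to 12.03 to 17.0 CPM, nearly all of it from Cd79b with 139 to 299 counts per library. Cd79a reached 17 counts and Igll1 11, and Pax5 and Ebf1 had at most 3 in any library. The erythroid list summed to 1.12 to 2.02 CPM, but the globin copies overlap in the annotation, so their counts of 0 say nothing about globin RNA. In bulk RNA, fewer cells of a type and less RNA per cell cannot be told apart.

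Upp1, which splits uridine into uracil and ribose 1-phosphate (chromosome 11, 9118008 to 9136170, mm10), was read almost exclusively in control replicates 1 and 2. CCL5 replicates 1 to 3 held 1, 3 and 1 of its reads, control replicates 1 to 3 held 718, 781 and 13. These are 0.0712, 0.183 and 0.0910 CPM with CCL5, against 45.5, 41.6 and 0.715 CPM in the controls. The 2 groups did not overlap, but the third control library stood far closer to the CCL5 libraries than to the other controls. Control replicate 1 exceeded control replicate 3 by 63.7 times (95% interval 37.0 to 120, exact, counting error only). Control replicate 3 exceeded CCL5 replicate 2, the highest of its group, by 3.90 times (1.07 to 21.4). No group fold change is given, since all CCL5 libraries were at or below 3 counts.

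Cda, which deaminates cytidine to uridine (chromosome 4, 138338528 to 138367955), was laid out like Upp1. It had 3, 1 and 1 counts with CCL5 and 112, 138 and 0 counts in control replicates 1 to 3. Control replicates 1 and 2 thus measured 7.10 and 7.36 CPM, while the other 4 libraries were at or below 3 counts. The groups overlapped, because control replicate 3 had no read, which allows up to 3 counts or 0.165 CPM. Control replicate 1 exceeded CCL5 replicate 1 by 33.2 times (11.1 to 164). Dpys, which acts on the uracil that uridine phosphorylase releases once it has been reduced, was named after its values were seen. It had 4, 1 and 2 counts with CCL5 and 57, 65 and 0 counts in the controls, so that the same 2 libraries were high. Dpyd, which reduces uracil, and Upb1, which ends the breakdown route, had no read in any library.

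The stretches before the start of Upp1 and Cda are shown because these 2 genes were high in the same libraries. They are RefSeq promoter windows (GRCm38.p6) of 250 bases, 5′ to 3′ on the strand of the gene, with capitals for the letters TGAGTCA, an AP-1 motif, and GGGCGG, a GC box, on either strand.
Upp1, chr11:9117758-9118007, plus strand: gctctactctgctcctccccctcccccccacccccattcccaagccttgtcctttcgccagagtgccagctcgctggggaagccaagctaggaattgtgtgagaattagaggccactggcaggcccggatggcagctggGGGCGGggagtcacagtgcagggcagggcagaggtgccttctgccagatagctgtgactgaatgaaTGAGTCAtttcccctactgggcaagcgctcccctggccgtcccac
Cda, chr4:138367956-138368205, minus strand: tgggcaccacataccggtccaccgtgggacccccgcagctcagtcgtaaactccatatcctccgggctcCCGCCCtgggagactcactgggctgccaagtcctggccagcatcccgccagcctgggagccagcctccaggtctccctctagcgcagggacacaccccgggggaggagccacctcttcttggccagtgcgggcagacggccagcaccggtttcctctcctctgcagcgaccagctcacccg

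Both windows hold a GC box, which 32.7% of all 32851 windows of that length also hold. TGAGTCA begins 45 bases before the start of Upp1 and is absent from the Cda window, and 4.46% of all windows hold it. These 2 motifs were added after the sequences were seen. The others searched were CACGTG (E box), TTTCCCGC and TTTGGCGC (E2F), CCAAT, and 2 NF-kB sites. None of them occurred on either strand in the windows of the 8 genes that had one, against 6.02%, 0.895%, 0.417%, 33.8%, 0.140% and 0.0852% of all windows. A match or its absence describes the letters of this window and nothing about a factor.

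The genes most like Upp1 were sought by the root mean square difference of centred log2 CPM over the 6 libraries, among 10364 genes that are neither members nor predicted genes (Gm or Rik names). Nearest were Stfa2l1, a stefin A gene, at a difference of 0.50, Crtac1 at 0.71, Atg9b at 0.77, Niacr1, the niacin receptor, at 0.77 and Cth, which makes cysteine from cystathionine, at 0.89. Cth measured 24.3 and 28.7 CPM in control replicates 1 and 2 and 0.182 to 0.672 CPM in the other 4 libraries. Stfa2l1 measured 201 and 193 CPM against 1.001 to 1.82 CPM, and its reads can be shared with near-identical stefin copies. Each of the 5 genes was thus high in the same 2 libraries, both of them controls.

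**Figure D1:**
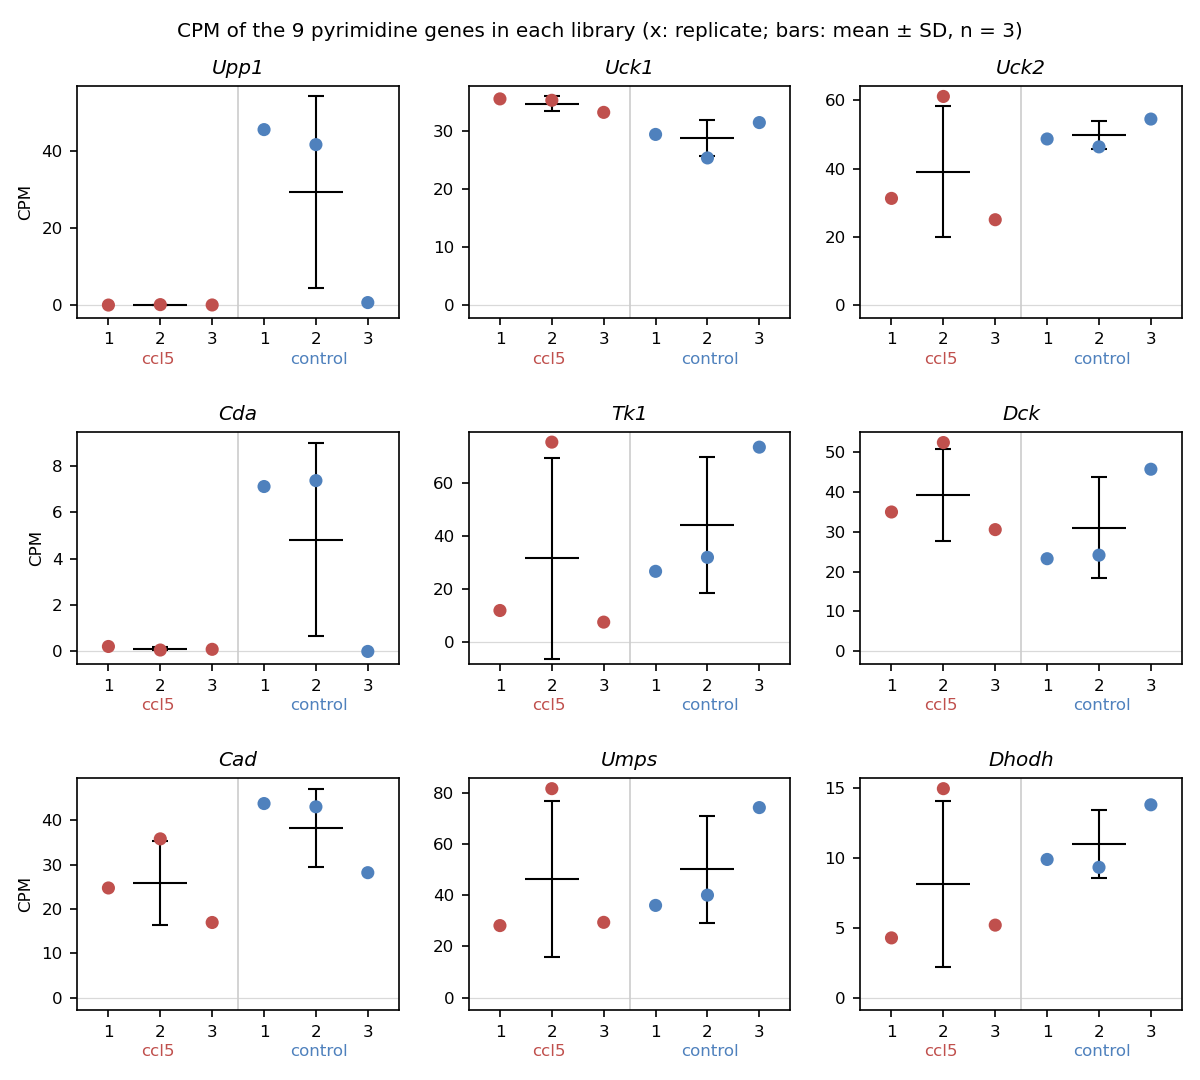
CPM of each of the 9 genes (y axis, linear, a separate scale per gene) in the 3 CCL5 and 3 control libraries (x axis, replicate number). Points are libraries and bars the mean ± SD of 3. Upp1 and Cda are high in control replicates 1 and 2 only, while Tk1, Umps, Dhodh, Uck2 and Dck are highest in CCL5 replicate 2 and control replicate 3.

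Among the genes of new synthesis, Umps and Dhodh were highest in CCL5 replicate 2 and control replicate 3, and Cad was highest in control replicates 1 and 2. Umps (chromosome 16, 33955012 to 33967003) measured 28.1, 81.7 and 29.4 CPM across CCL5 replicates 1 to 3, against 36.0, 40.0 and 74.3 CPM across control replicates 1 to 3. Its group means were nearly equal, 46.4 ± 30.5 with CCL5 against 50.1 ± 21.0 CPM without it (SD, n = 3 each), with a log2 fold change of -0.11 (SE 0.52). Dhodh (chromosome 8, 109593248 to 109608673) measured 4.27, 15.0 and 5.19 CPM with CCL5, against 9.89, 9.33 and 13.8 CPM in the controls, a log2 fold change of -0.43 (SE 0.53). The groups overlapped for both genes, and the highest and the second-highest library came from opposite groups.

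Cad, which encodes the enzyme that starts the route (chromosome 5, 31054811 to 31078479), measured 24.7, 35.8 and 16.9 CPM with CCL5, against 43.8, 43.0 and 28.2 CPM in the controls. CCL5 replicate 2 lay above control replicate 3, so the groups overlapped. The log2 fold change was -0.57 (SE 0.33), and it kept its sign in all 14 alternatives run. It shrank to -0.10 (SE 0.34) in the 4 libraries with Y-linked reads. Ctps, a CTP synthase that acts after UMPS, was lowest where Cad was lowest, at 11.8, 31.7 and 7.10 CPM with CCL5 against 32.5, 36.6 and 25.8 CPM (adjusted p = 0.483 in edgeR). Its paralogue Ctps2 was level, at 81.4 ± 4.63 with CCL5 against 82.6 ± 10.6 CPM without it.

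The uridine-cytidine kinases Uck1 and Uck2 carry out the same step, trapping uridine and cytidine as monophosphates. Uck1 (chromosome 2, 32255002 to 32260105) was the steadiest of the 9 genes, with a coefficient of variation of 12.2% over the 6 libraries. It measured 35.5, 35.3 and 33.2 CPM with CCL5, against 29.4, 25.4 and 31.5 CPM in the controls. Each CCL5 library was above every control library, by a small margin (log2 fold change 0.27, SE 0.15). Uck2 (chromosome 1, 167226084 to 167285127) measured 31.3, 61.1 and 25.03 CPM with CCL5, against 48.6, 46.3 and 54.5 CPM in the controls. CCL5 replicate 2 was the highest library and CCL5 replicates 1 and 3 the lowest (log2 fold change -0.35, SE 0.35).

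As a share of the reads of both kinases, Uck2 made up 46.8% (Wilson 95% interval 43.6 to 50.002), 63.4% (61.0 to 65.7) and 43.0% (39.2 to 46.8) in CCL5 replicates 1 to 3. In control replicates 1 to 3 it made up 62.3% (59.6 to 65.0), 64.6% (62.0 to 67.1) and 63.4% (61.0 to 65.7). CCL5 replicates 1 and 3 were thus lower than the other 4 libraries by more than counting error, and CCL5 replicate 2 lay within the range of the controls. Group means were 51.0 ± 10.8% and 63.4 ± 1.15% (SD, n = 3 each). Per kilobase of transcript Uck2 made up 52.4 to 72.7%, so its RNA was the more abundant of the 2 in every library on that scale.

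**Figure D2:**
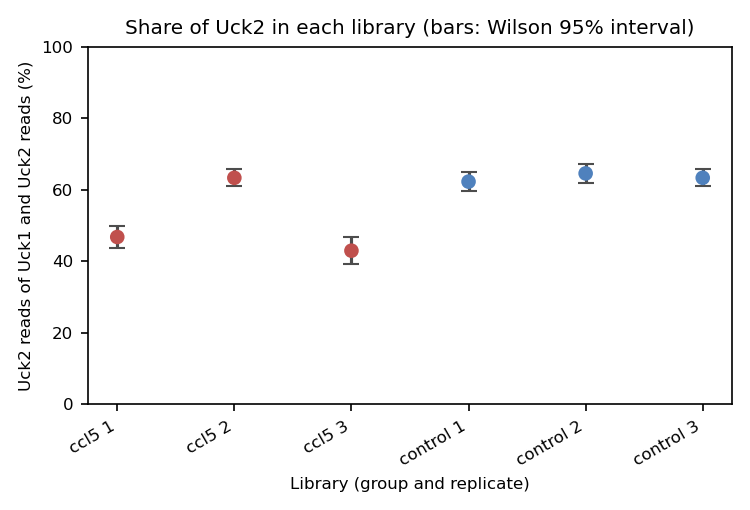
Share of Uck2 among the reads of Uck1 and Uck2 (y axis, percent) in each of the 6 libraries (x axis), with Wilson 95% intervals that cover counting error only. CCL5 replicates 1 and 3 lie at 46.8% and 43.0%, the other 4 libraries between 62.3% and 64.6%.

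The deoxynucleoside kinases feed DNA synthesis. Tk1, the cytosolic thymidine kinase whose level rises in S phase (chromosome 11, 117815519 to 117826014), spanned a 9.89-fold range. It measured 12.04, 75.6 and 7.65 CPM with CCL5, against 26.8, 32.1 and 73.7 CPM in the controls. CCL5 replicate 2 and control replicate 3 were high and alike, control replicates 1 and 2 lay between, and CCL5 replicates 1 and 3 were low. The log2 fold change of -0.47 (SE 0.93) was smaller than its error. It was -2.16 (SE 0.56) without CCL5 replicate 2, 0.13 (SE 1.06) without control replicate 3 and 0.77 (SE 0.66) in the Y-positive libraries.

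Dck, which phosphorylates deoxycytidine (chromosome 5, 88765013 to 88783277), measured 34.9, 52.3 and 30.5 CPM with CCL5, against 23.2, 24.1 and 45.6 CPM in the controls. It was highest in the same pair of libraries as Tk1, but control replicates 1 and 2 were its lowest. Its log2 fold change was 0.34 (SE 0.35), 0.74 (SE 0.29) without control replicate 3 and 0.08 (SE 0.35) without CCL5 replicate 2. With primary transplant libraries only it was -0.15 (SE 0.67), where control replicate 3 is the lone control.

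The window before Tk1 and that before Umps are printed because both genes peaked in CCL5 replicate 2 and control replicate 3. Capitals again mark the GC box.
Tk1, chr11:117826015-117826264, minus strand: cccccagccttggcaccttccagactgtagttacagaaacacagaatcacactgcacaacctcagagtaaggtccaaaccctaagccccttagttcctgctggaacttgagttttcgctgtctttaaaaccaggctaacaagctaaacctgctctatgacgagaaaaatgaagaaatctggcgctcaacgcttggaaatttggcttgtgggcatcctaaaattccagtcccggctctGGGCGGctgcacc
Umps, chr16:33967039-33967288, minus strand: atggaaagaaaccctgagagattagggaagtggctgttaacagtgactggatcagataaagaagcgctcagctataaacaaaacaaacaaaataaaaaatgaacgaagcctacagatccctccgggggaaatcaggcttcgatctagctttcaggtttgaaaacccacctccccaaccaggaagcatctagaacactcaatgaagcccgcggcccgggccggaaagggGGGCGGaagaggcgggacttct
GGGCGG begins 13 bases before the start of Tk1. For Umps it begins 22 bases before the RefSeq start, which lies 35 bases from the gene start of the count table. With 49.6% G and C each, the windows of Tk1 and Umps have a lower content than those of Upp1 (62.4%) and Cda (68.0%). The median of all windows is 52.4%. Of the 8 windows 7 hold the GC box, the exception being Uck1, against 32.7% of all windows. Since this motif was added after the sequences were seen, the count only describes these windows.

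The genes whose layout was nearest to that of Tk1 on the measure used for Upp1 were Clspn, which encodes the replication checkpoint protein claspin, at a difference of 0.06, Racgap1, which acts in cytokinesis, at 0.07, Fanci, a DNA repair gene, at 0.08, Tnnt1 at 0.08 and Lbp at 0.10. The summed level of 19 DNA replication genes was 833, 1695 and 744 CPM across CCL5 replicates 1 to 3, against 827, 881 and 1485 CPM across control replicates 1 to 3. Of this sum Pcna made up 423, 324 and 440 CPM with CCL5, against 282, 291 and 307 CPM in the controls. The summed level of 12 mitosis genes was 252, 2301 and 169 CPM with CCL5, against 892, 946 and 2210 CPM in the controls. CCL5 replicate 2 and control replicate 3 were highest on both sums, as they were for Tk1, Umps, Dck, Uck2 and Dhodh. Summed monocyte and macrophage markers ran the other way, at 22164, 4064 and 25768 CPM with CCL5, against 12265, 12010 and 4424 CPM in the controls. Neutrophil granule genes summed to 15726 and 15494 CPM in CCL5 replicate 2 and control replicate 3 and to 782 to 2979 CPM in the other 4. Ngp (4905 and 4713 CPM) and Elane (4548 and 4360 CPM) were the largest parts of the 2 high sums. Mmp8 alone of the list did not peak in that pair, at 465, 250 and 533 CPM with CCL5, against 44.1, 35.6 and 286 CPM in the controls. Ctsg measured 172, 1986 and 115 CPM with CCL5, against 1734, 1742 and 2141 CPM in the controls. The part of proliferation and of cell type in the levels of these genes was not tested.

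Of the DNA replication list, 0 of 19 genes passed the test. The 2 with the smallest p, Cdt1, a licensing factor, and Pcna, the polymerase clamp, did not share the layout of Tk1, and their groups did not overlap. Cdt1 measured 55.6 ± 4.54 CPM with CCL5 against 38.3 ± 2.97 CPM without it (log2 change 0.54, with an SE of 0.14 and edgeR adjusted p = 0.365). Pcna measured 396 ± 62.6 and 293 ± 12.6 CPM (log2 change 0.43, with an SE of 0.18 and edgeR adjusted p = 0.367).

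Per kilobase (RPKM, which allows genes to be compared), the order of the 9 genes differed between libraries. In CCL5 replicate 2 the order was Tk1 (55.2), Uck2 (45.7), Umps (25.4), Uck1 (18.1), Dck (17.1), Dhodh (6.46) and Cad (5.04), with Upp1 and Cda last. Control replicate 3 had the same order, with Tk1 at 53.8 and Uck2 at 40.7 RPKM. In control replicate 1 Uck2 led at 36.4 RPKM and Upp1 came next at 29.7, ahead of Tk1 (19.6), Uck1 (15.1), Umps (11.2), Cda (8.78), Dck (7.59), Cad (6.16) and Dhodh (4.27). Control replicate 2 gave 34.6 RPKM for Uck2, 27.2 for Upp1 and 23.4 for Tk1. In CCL5 replicate 1 Uck2 (23.4) and Uck1 (18.2) led, and Tk1 (8.79) and Umps (8.74) were level. Uck2 stood first or second in every library, and Dhodh and Cad were the lowest of the 7 genes that were read in all libraries at more than 3 counts.

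The closest libraries from opposite groups, CCL5 replicate 2 and control replicate 3, are both labelled primary transplants. Between them the ratio of CCL5 to control was 1.03 for Tk1, 1.08 for Dhodh, 1.10 for Umps, 1.12 for Uck1 and Uck2, 1.15 for Dck and 1.27 for Cad. The interval from counting error excluded 1 for Uck2 (1.03 to 1.23), Umps (1.02 to 1.19), Dck (1.04 to 1.26) and Cad (1.13 to 1.43). These ratios compare 2 libraries and not the treatments. Within the CCL5 group, Tk1 was 1.57 times higher in replicate 1 than in replicate 3 (1.20 to 2.07) and Cad 1.46 times (1.22 to 1.75).

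**Figure D3:**
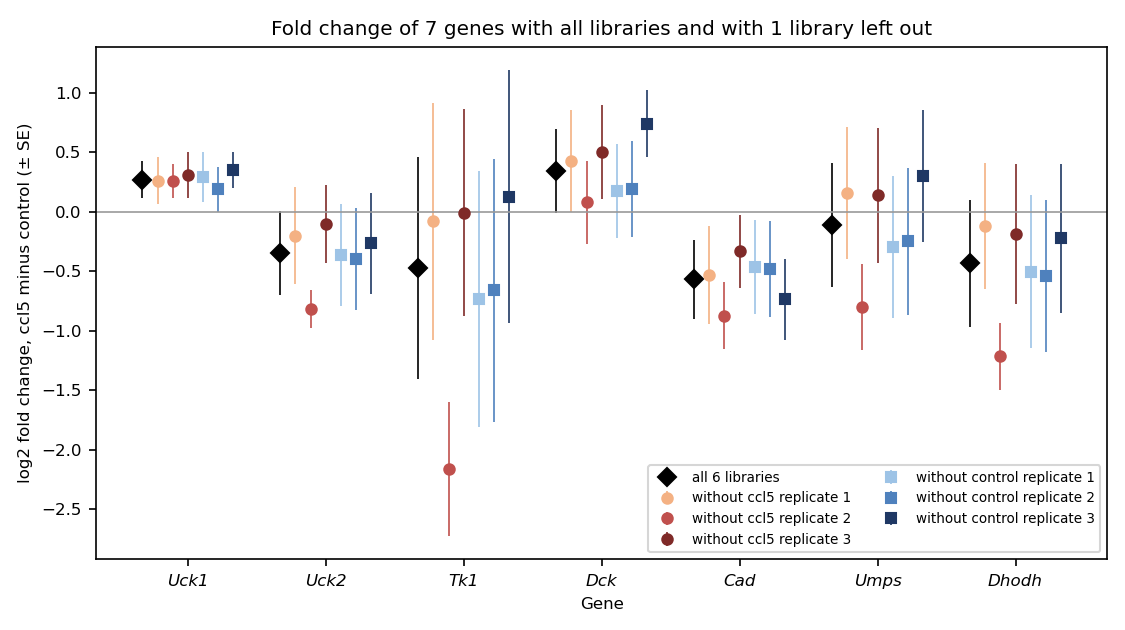
Log2 fold change of 7 genes, CCL5 minus control (y axis, bars ± SE), with all 6 libraries (black diamonds) and with each library left out. Without CCL5 replicate 2 Tk1 reaches -2.16 and Dhodh -1.22, while Uck1 stays above 0 and Cad below 0 in each fit shown.

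Over the whole table of 12174 tested genes, the edgeR quasi-likelihood fit called 0 at an adjusted p of 0.05 (0%), and 1663 (13.7%) had an unadjusted p under 0.05. DESeq2's Wald test called 199 of 12164 genes and limma-voom with quality weights 8097 of 12174. The groups did not overlap in 15.8% of all genes, 8.27% higher and 7.49% lower with CCL5. Of the 8 members tested 0 passed in edgeR. DESeq2 called 1 of them, Upp1, and limma-voom with quality weights all 8. Leaving out CCL5 replicate 2, edgeR called 3299 of all 12581 genes tested, among them Uck2, Tk1 and Dhodh, all lower with CCL5. Leaving out control replicate 3, it called 237 of all 12579 genes tested, among them Upp1 and Cda, both lower. With all 6 libraries the groups did not overlap for Uck1 (higher) and Upp1 (lower). The fold change was higher for 2 members and lower for 6, with a median of -0.39 that does not depend on the size of the fold of Upp1, against -0.01 over all genes tested. Since Upp1 was picked on this comparison, these counts describe the set and support nothing further. Without CCL5 replicate 2 the sizes grew, to -0.82 (SE 0.16) for Uck2, -0.80 (SE 0.36) for Umps and -1.22 (SE 0.29) for Dhodh. In the fit to Y-positive libraries, where CCL5 replicate 2 is the lone CCL5 library, values turned positive for Uck2 (0.29), Umps (0.70) and Dhodh (0.44).

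Of 40 other genes of pyrimidine metabolism in 6 lists, 33 were tested and 0 passed in either direction, against 0% of all genes. Their fold change was higher for 8 and lower for 25, where all genes tested gave 5964 higher and 6210 lower, and the smallest adjusted p was 0.365 in edgeR. Their median log2 change of -0.32 depended on the libraries as well. It was -0.77 without CCL5 replicate 2, -0.47 without control replicate 1, -0.41 without control replicate 2 and -0.36 with primary transplant libraries only. It was -0.13 without CCL5 replicate 1, -0.08 without CCL5 replicate 3, -0.07 without control replicate 3 and 0.16 in the Y-positive libraries. With limma-voom and quality weights it was -0.65. DESeq2 called 1 of them, Slc29a3. The 0 called depended on which libraries entered. With CCL5 replicate 2 left out edgeR called 14 of 36, 4 higher and 10 lower. In that fit 3299 of all 12581 genes were called, 1802 higher and 1497 lower. With control replicate 3 left out it called 3 of 35, all lower, beside 237 of all 12579 genes, 68 higher and 169 lower. The remaining 2 CCL5 libraries of the first fit are also those without Y-linked reads, so the treatment and whatever else set them apart cannot be told apart.

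Nucleoside transporters showed 2 opposite layouts. Slc29a3, a lysosomal nucleoside carrier, measured 85.1, 28.03 and 79.1 CPM with CCL5, against 17.8, 16.2 and 25.2 CPM in the controls. Its groups did not overlap, and CCL5 replicate 2 lay close to control replicate 3 (log2 change 1.70, with an SE of 0.46 and edgeR adjusted p = 0.365). Slc29a1, the main carrier of the plasma membrane, measured 234, 57.0 and 250 CPM with CCL5, against 58.8, 53.8 and 57.0 CPM in the controls, so that 2 CCL5 libraries stood above the other 4. Slc28a2, a sodium-coupled carrier that takes up uridine and purine nucleosides, measured 23.7, 28.8 and 20.5 CPM with CCL5, against 75.8, 77.5 and 29.9 CPM in the controls. Control replicates 1 and 2 were its high libraries, as for Upp1 and Cda, and its groups did not overlap (log2 change -1.33, with an SE of 0.39 and edgeR adjusted p = 0.365).

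Nt5e, which encodes CD73, the surface enzyme that releases nucleosides from monophosphates, also had this layout. It measured 33.9, 42.4 and 29.4 CPM with CCL5, against 163, 181 and 40.9 CPM in the controls (log2 change -1.86, with an SE of 0.56 and edgeR adjusted p = 0.365). Control replicate 3 lay just below CCL5 replicate 2, so the groups overlapped. Dctd, which deaminates dCMP to dUMP, measured 1.85, 6.72 and 0.455 CPM with CCL5, against 12.6, 15.6 and 4.62 CPM in the controls. Control replicates 1 and 2 were again highest, and CCL5 replicate 2 exceeded control replicate 3. Of the nucleotidases inside the cell, Nt5c measured 34.7 ± 12.2 with CCL5 against 47.1 ± 3.19 CPM without it, and Nt5c3 22.5 ± 9.90 against 28.7 ± 6.499 CPM. Reads of Upp1, Cda, Dctd, Nt5e and Slc28a2 were thus each highest in control replicates 1 and 2.

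Of the 8 genes that supply deoxynucleotides 0 passed, with 7 at a lower and 1 at a higher fold change. In Rrm1, Tyms, Shmt1 and Dut CCL5 replicate 2 and control replicate 3 were the highest libraries, as for Tk1. Rrm1, the large subunit of ribonucleotide reductase, measured 42.6, 225 and 33.5 CPM with CCL5, against 103, 112 and 210 CPM in the controls. Dut, the dUTPase, measured 20.8, 107 and 16.02 CPM and 40.6, 40.3 and 99.3 CPM. Both were named after their values were seen, as examples of this layout. Rrm2 measured 49.3 ± 35.9 with CCL5 against 70.5 ± 12.6 CPM without it and Rrm2b, the subunit used outside S phase, 24.0 ± 3.54 against 28.7 ± 5.57 CPM. Rrm2b was lowest in CCL5 replicate 2 and control replicate 3, the opposite of Tk1. Samhd1, which degrades deoxynucleotides, ran opposite to Tk1, at 262, 89.8 and 275 CPM with CCL5, against 160, 150 and 97.9 CPM in the controls (log2 change 0.62, with an SE of 0.46 and edgeR adjusted p = 0.555).

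**Figure D4:**
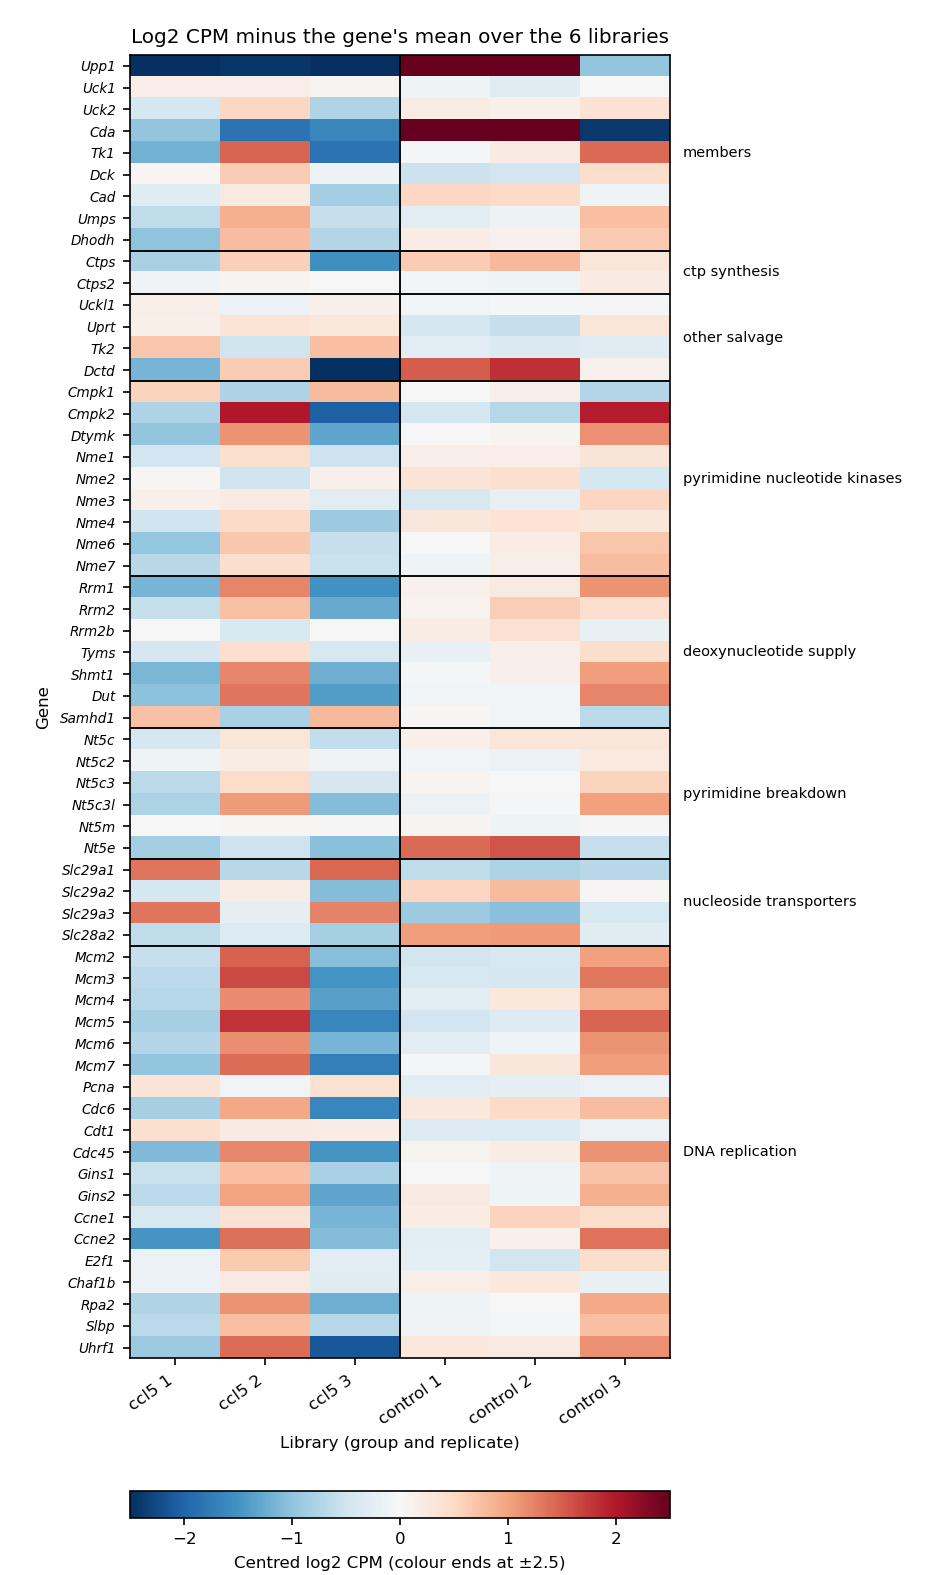
Log2 CPM (prior count 2) minus each gene's mean over the 6 libraries, for the 9 genes, all but 1 of the 33 other pyrimidine genes tested and 19 DNA replication genes (rows), by library (columns). Red is above and blue below the gene's mean. CCL5 replicate 2 and control replicate 3 share their colours in most DNA replication and deoxynucleotide genes, and Upp1, Cda, Dctd, Nt5e and Slc28a2 are red in control replicates 1 and 2.

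Among the mono- and diphosphate kinases 8 of 9 had a lower and 1 a higher fold change, and 0 passed. Nme4, a mitochondrial nucleoside diphosphate kinase, measured 12.9, 25.7 and 9.74 CPM with CCL5, against 22.3, 23.3 and 22.3 CPM in the controls. Nme1 measured 58.1 ± 22.4 against 73.8 ± 4.97 CPM and Nme7 7.77 ± 3.65 against 10.98 ± 3.68 CPM. In the list of other salvage genes 4 of 6 were tested, 3 with a higher and 1 with a lower fold change. Tk2, the mitochondrial thymidine kinase, was high where Tk1 was low, at 76.8, 33.8 and 80.5 CPM with CCL5, against 39.0, 37.0 and 38.8 CPM in the controls (log2 change 0.73, with an SE of 0.34 and edgeR adjusted p = 0.387). Uprt measured 15.6 ± 1.25 against 11.5 ± 4.09 CPM. Upp2, the paralogue of Upp1, had no read in any library.

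Purine synthesis, the parallel route, was set beside these genes as a comparison. Of its 14 genes 12 had a negative and 2 a positive log2 change, none passing the edgeR test, with a median log2 change of -0.25. Adss, which acts in AMP synthesis, measured 179, 156 and 191 CPM with CCL5, against 304, 312 and 162 CPM in the controls, and Adsl 32.0 ± 11.5 against 44.3 ± 6.21 CPM. No difference between the purine and pyrimidine genes was tested.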

How the data were processed

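Poly(A) RNA was sequenced from 1 end only, per the labels' protocols. Deposited was a table of raw counts per gene, 1 column a library, made with featureCounts 1.5.1 on primary alignments and the UCSC mm10 genes, with no strand option, per the file headers. Reads of overlapping or antisense genes therefore cannot be told apart. The submitters' processing notes name Trimmomatic, Bowtie, TopHat and DESeq2 and give no version. Library columns were matched to samples by the letter ending each title. The gene length in the table is another deposited value and was used for RPKM.

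Groups came from the titles. Counts were filtered with filterByExpr (minimum count 10, 12174 of 23337 genes left) and then scaled by TMM on the genes left. They were compared by edgeR 4.0.16 (quasi-likelihood, two-sided, under R 4.3.3), Benjamini-Hochberg adjusted over all genes tested, threshold 0.05. Each SE was obtained as the size of the log2 change over the root of the F statistic. Fold changes are CCL5 over control. Replicate numbers do not pair the groups. The members and lists were chosen with earlier results of these data known, so members carry no p-value. For the same reason the permutation test planned for the share of Uck2, which cannot go below 0.1 with 3 against 3, is not given. All 40 other pyrimidine symbols were in the table of counts. RefSeq promoter windows were found for 8 of the 9 members (not Dhodh), and 6 of these end at the gene start of the count table. Named genes were every member, up to 3 tested genes with the smallest p from each pyrimidine list, up to 2 from the purine, replication and mitosis lists, and the 5 genes nearest to Upp1 and Tk1 with average log2 CPM of at least 1 (prior count 2). From the mitosis list these were Kif23, at 24.3 ± 28.6 CPM with CCL5 and 41.9 ± 17.1 CPM in controls, and Cdk1, at 49.7 ± 70.0 and 95.9 ± 33.5 CPM. B-lymphoid, T and NK, erythroid, monocyte, neutrophil and myeloid leukemia markers were checked per library, with T and NK markers summing to 1.46 to 69.7 CPM. Nkg7 made up 60.5 of 62.8 CPM in CCL5 replicate 2 and 66.7 of 69.7 CPM in control replicate 3. Lck reached 44 counts, and Cd3e, Cd3d, Cd3g, Cd4, Cd8a and Klrb1c had at most 8 in any library.

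The scripts were tested on simulated data. In 12 simulations the main test called 3 of 586 genes changed 2-fold (0.512%), 35.1% of those changed 4-fold and 83.9% of those changed 16-fold. A gene that did not pass may thus still have changed. Alternatives were DESeq2 1.42.0 size factors and Wald test, limma 3.58.1 voom with quality weights, 2 other filters, thinning, and fits to fewer libraries.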

Additional observations from a re-analysis of the deposited data

How the results depend on the processing

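The count of genes called was 0 in the main fit and stayed 0 with DESeq2 size factors, no filter, a minimum of 1 CPM in 3 libraries, thinned counts, primary transplant libraries only and libraries with Y-linked reads only. It was 199 of 12164 genes with DESeq2's Wald test and 8097 of 12174 with limma-voom and quality weights. Leaving out 1 library gave 0 to 3299, with 3299 without CCL5 replicate 2 and 237 without control replicate 3. Of the other pyrimidine genes DESeq2 called 1 of 35 and limma-voom 28 of 33, and leaving out 1 library gave 0 to 14. The share of Uck2 differed by -12.4 percentage points between group means, by -11.6 per kilobase, and by -18.5 to -8.35 when 1 library was left out. Over the alternatives the sign of the fold change turned in 4 of 14 for Umps, 2 for Tk1, 1 each for Dck, Dhodh and Uck2, and in none for Cad and Uck1. Of the 5 genes nearest to Upp1, 4 were shared at a prior count of 0.5, and all 5 for Tk1. Leaving out a library leaves 2 in its group, and fits to primary or Y-positive libraries leave 1 library in a group, which is assumed to vary like the others. The depth limits Upp1 and Cda: ratios against libraries with 1 to 3 counts have wide counting intervals.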
